A study of Mus musculus with 7 samples.

Results

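The cells described here are excitatory neurons of mouse brain hemisections chosen by their transcripts to represent layer 6b of the cortex. A cell was taken when it held at least 3 transcripts of Slc17a7, which encodes the vesicular glutamate transporter VGLUT1, and at least 4 of Cplx3, which encodes the synaptic protein complexin 3. It also had to hold at most 2 transcripts of Slc17a6, which encodes VGLUT2, and at most 2 of the GABA-synthesising enzyme genes Gad1 and Gad2 together. These 4 terms gave 3943 cells of 384076, or 1.03%, called members or the layer 6b gate below. They were 5.13% of the 76836 cells that met the terms on Slc17a7, Slc17a6 and Gad1 plus Gad2 (the VGLUT1 gate).

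Layer 6b is the thin, deepest sheet of the cerebral cortex and borders the white matter. Many of its excitatory neurons derive from the subplate, a layer of early-born neurons that guides the first connections between thalamus and cortex during development. Cplx3, the matricellular protein gene Ccn2 and the neurexophilin gene Nxph3 are known as markers of these cells in mouse. Cplx3 is also known from some GABAergic interneurons, so a transmitter term is needed to separate the populations.

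The sections came from wild-type mice and were profiled with Xenium, which reads individual RNA molecules of chosen genes by rounds of fluorescence imaging and allots each to a segmented cell. There were 7 fresh-frozen hemisections, each 10 µm thick, cut for a study of the anterior thalamic nuclei: 2 anterior (bregma -0.58 mm), 2 intermediate (bregma -0.70 to -0.82 mm) and 3 posterior (bregma -0.94 mm). The labels do not say that replicates came from separate animals, so p-values measure no more than section-to-section spread, which may be technical. They give no age, sex or strain. Replicates 1 and 2 lay on 1 slide and posterior replicates 3 and 4 on another.

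The panel had 297 genes. Members held 1711478 transcripts in all, between 219765 and 266247 per section, and the median member held 412 (386.5 to 432 across sections) against 339 for all cells. Control probes, which match no transcript, gave 1.11 counts per member, from 0.537 in intermediate replicate 2 to 1.79 in posterior replicate 3. A single cell showed up to 6 different control probes, so the background of 1 gene is at most 0.186 counts per member if it equals that of an average control probe. In members, 73 of 297 genes lay at or below that level. Fold differences that rest on such genes are named as such.

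Because the rule was set on transcript counts, the 5 genes it used are described with no test. Slc17a7 averaged 14.3 transcripts per member in the lowest section, 16.1 in the median section and 18.2 in the highest. Cplx3 averaged 8.78, 9.87 and 10.4. Slc17a6 stayed between 0.0907 and 0.154, Gad1 between 0.387 and 0.468 and Gad2 between 0.168 and 0.236 per member. The counts run through the thresholds without a gap: 700 members sat at exactly 4 Cplx3 transcripts, while 1199 cells that met the other terms held 3. Of the former 41.6% held at least 3 Ccn2 transcripts, and of the latter 27.9%. At the Slc17a7 threshold, 131 members held 3 transcripts and 107 cells just outside held 2, with 3.50 and 2.99 Ccn2 transcripts per cell. On the other terms, 75 members held 2 Slc17a6 transcripts and 42 cells just outside held 3. With Gad1 and Gad2 summed, 580 members held 2 transcripts and 327 cells just outside held 3.

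The layer 6b name was checked against genes that the rule did not use. Of 12 layer 6b and subplate markers listed for this work, the panel measured 4: Cplx3, Ccn2, Nxph3 and Inpp4b. Together these 4 made up 7.02% to 7.88% of a member's transcripts, against 1.11% to 1.32% in the Foxp2 gate and 0.459% to 0.499% in other VGLUT1 neurons, both defined below. Cplx3, which chose the cells, is part of that sum, so the other 3 are given singly. The name could not be checked against the claustrum, since none of 4 claustrum markers was measured, and no cell positions were used here. Of 5 hippocampal markers 4 were measured (Wfs1, Fibcd1, Prox1 and Cabp7). They made up 1.09% to 1.31% of member transcripts, 0.248% to 0.336% in the Foxp2 gate and 0.597% to 1.16% in other VGLUT1 neurons. Against the Foxp2 gate 3 of 4 were higher, with a median log2 difference of 0.78, and their part in the results was not tested. Fibcd1 stayed between 0.0153 and 0.0375 transcripts per member. Trp73, the Cajal-Retzius marker measured, stayed between 0.00175 and 0.0125 transcripts per member.

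Ccn2, which encodes a secreted matricellular protein, averaged 8.39 transcripts per member in the lowest section, 9.17 in the median and 10.4 in the highest. At least 1 Ccn2 transcript was seen in 90% of members. After every cell was thinned to 200 transcripts, which left out 294 shallower members, Ccn2 was seen in 83.8% of members, 9.53% of the Foxp2 gate, 8.76% of other VGLUT1 neurons and 3.51% of cells gated as oligodendrocytes (unthinned 18.9%, 12.8% and 3.17%). Median depths were 502, 358 and 155 transcripts in the latter groups, of which 93, 13333 and 6734 cells were too shallow to thin. Nxph3, which encodes a secreted ligand of neurexins, averaged 12.4, 12.8 and 13.7 transcripts per member, and Inpp4b, which encodes an inositol polyphosphate phosphatase, 1.07, 1.26 and 1.33.

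To show where members differ from other neurons, their counts were summed per section and set against 3 gates in the same sections (n = 7 sections in each group). The Foxp2 gate held 5864 cells with at least 4 Foxp2 and at most 1 Cplx3 transcripts and the same other terms. Foxp2 is a marker of layer 6 corticothalamic neurons. Other VGLUT1 neurons were the 69184 cells of the VGLUT1 gate with at most 1 Cplx3 transcript, of which the Foxp2 gate is a subset. The Cplx3 GABAergic gate held 715 cells with at least 4 Cplx3 and at least 6 Gad1 plus Gad2 transcripts and at most 2 of either transporter gene. All 3 comparisons share the members. Genes that defined either gate were left out of each test, and a log2 difference is given with its standard error from edgeR.

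Against the Foxp2 gate, edgeR's quasi-likelihood test called 232 of 287 genes (80.8%) at a Benjamini-Hochberg adjusted p of 0.05, 120 higher (41.8%) and 112 lower (39.0%) in members. With library size in place of TMM scaling the calls were 174 higher and 75 lower, a share of 69.9% higher in place of 51.7%, as the median of all genes moved from -0.02 to 0.53 on the log2 scale. The differences below are relative to the TMM centre, and a shift of this size matters for genes near 0. All 3 layer 6b markers tested were higher, with a median log2 difference of 2.95 against -0.02 for all genes tested. Of the layer 6 corticothalamic markers, 4 of 4 were lower, with a median of -1.54. Sla, an adaptor protein gene, was the smallest of them (-0.40 ± 0.07), with overlapping sections (0.768, 0.791 and 1.01 transcripts per member against 0.76, 0.872 and 1.04), and gave 0.15 with library size, where 3 of the 4 were lower.

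Ccn2 gave the largest difference. The Foxp2 gate averaged 0.25 Ccn2 transcripts per cell in its lowest section, 0.312 in the median and 0.472 in the highest, far under the lowest member section at 8.39. The log2 difference was 4.52 ± 0.07 (edgeR adjusted p = 3.87e-15), a 23.0-fold excess, higher in 7 of 7 sections. Inpp4b followed at 2.95 ± 0.08, with 0.102, 0.126 and 0.175 transcripts per Foxp2-gate cell. Nxph3 was also abundant in the Foxp2 gate, at 5.26, 5.64 and 6.31 transcripts per cell, so its log2 difference was smaller, 0.90 ± 0.07 (edgeR adjusted p = 2.23e-08). No section of either group overlapped the other for these 3 genes.

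**Figure D1:**
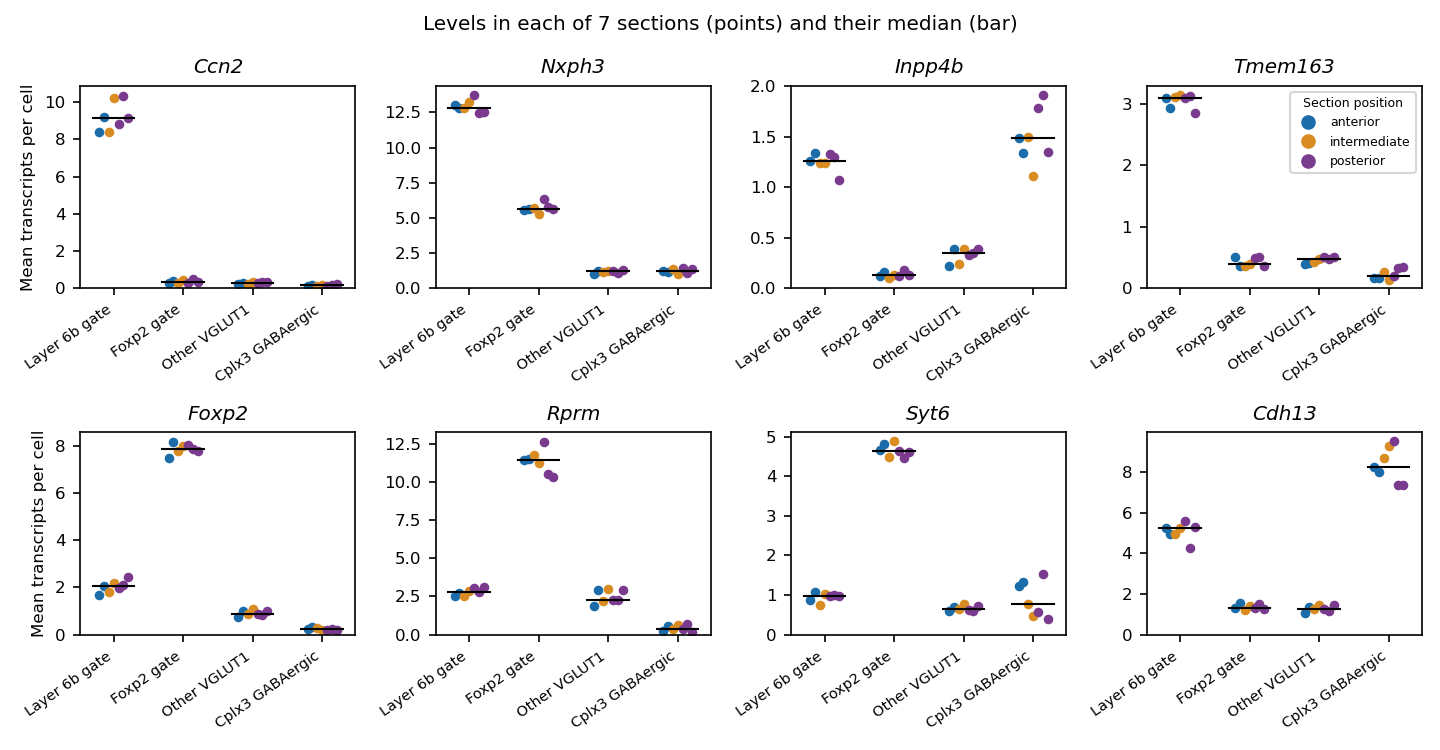
Mean transcripts per cell (vertical axis) of 8 genes in 4 cell groups (horizontal axis), with a point for each of 7 sections coloured by position and a bar at their median. Ccn2 and Tmem163 in members sit above every section of the other groups, Inpp4b in members overlaps the Cplx3 GABAergic gate, and Foxp2, which defined the Foxp2 gate, is shown there without a test.

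Among receptors and guidance molecules, Nrp2, a co-receptor for semaphorins, averaged 0.956, 1.05 and 1.27 transcripts per member and 0.0823, 0.107 and 0.239 per Foxp2-gate cell (log2 2.66 ± 0.18). The semaphorin gene Sema5b (2.04, 2.44 and 2.82 per member against 0.574, 0.707 and 0.845) was 1.53 ± 0.06 higher. T-cadherin, Cdh13, was 1.60 ± 0.06 higher. In contrast the Eph receptor gene Epha4 (1.44, 1.52 and 1.84 against 4.26, 4.68 and 5.2) was lower at -1.85 ± 0.07, and Cdh9, another cadherin, gave -1.47 ± 0.07. On the list of guidance and adhesion genes, 11 of 22 tested were higher and 5 lower, with a median of 0.19. With library size these counts were 18 and 4.

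Peptide signalling genes went in both directions with TMM scaling. The mu-opioid receptor gene Oprm1 averaged 0.956, 1.04 and 1.22 transcripts per member and 0.347, 0.376 and 0.467 per Foxp2-gate cell, a log2 difference of 1.17 ± 0.09. Rxfp1, a receptor for relaxin, was 0.98 ± 0.09 higher. Crh, which encodes corticotropin-releasing hormone, was 1.93 ± 0.14 higher, although it was low in both groups (0.160, 0.185 and 0.278 against 0.0289, 0.0405 and 0.0538), near the control-probe level, and seen in 7.43% of members. Ramp3, an accessory protein of calcitonin-family receptors, was lower at -1.41 ± 0.08. Of 14 genes of this list tested, 7 were higher and 3 lower, where 41.8% of all genes tested were higher and 39.0% lower. With library size 8 were higher and 1 lower. In cells with at most 5% glial and vascular transcripts (the setting described below) 4 were higher and 3 lower.

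Further genes with the largest excess were Tmem163, which encodes a zinc transporter of vesicles (log2 2.57 ± 0.08), and Zcchc12 (2.27 ± 0.09). Col19a1, a collagen gene, gave 1.97 ± 0.10, the glycosyltransferase gene Galnt14 1.95 ± 0.05 and the calcium-binding protein gene Cabp7 1.94 ± 0.07. Tmem163 averaged 2.85, 3.10 and 3.14 transcripts per member against 0.353, 0.392 and 0.499. In the median Foxp2-gate section Inpp4b, Nrp2, Zcchc12 and Col19a1 lay below 0.186 transcripts per cell, the control-probe level of the members, so the size of their folds is not exact. Spag16 and Fign were also among the 10 largest, at 2.76 ± 0.21 and 2.14 ± 0.13, but their median sections held 0.151 and 0.181 transcripts per member, within the control-probe level. Hpcal1, a neuronal calcium sensor, was 1.30 ± 0.05 higher, and Pcsk5, which encodes a proprotein convertase, was 1.52 ± 0.05 higher.

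The genes most reduced in members relative to the Foxp2 gate included known corticothalamic genes. Syt6, a synaptotagmin, averaged 0.755, 0.973 and 1.07 transcripts per member and 4.45, 4.64 and 4.88 per Foxp2-gate cell (log2 -2.59 ± 0.08). Rprm, linked to cell cycle arrest and a marker of corticothalamic cells, averaged 2.55, 2.82 and 3.09 against 10.3, 11.5 and 12.6 (-2.31 ± 0.08). Tle4, a transcriptional corepressor, was less reduced at -0.76 ± 0.08 and remained at 4.65, 5.19 and 5.69 transcripts per member. Sections of the 2 groups did not overlap for these 3 genes, as for 197 of all 287 genes tested.

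Other large deficits were Lamp5 (-2.68 ± 0.09), the insulin-like growth factor binding protein genes Igfbp6 (-2.32 ± 0.06) and Igfbp4 (-2.05 ± 0.08), the ubiquitin ligase gene Rnf152 (-2.28 ± 0.09), the myosin light chain gene Myl4 (-2.18 ± 0.09) and Trbc2 (-2.08 ± 0.10). Pln, Npnt and Kctd8 gave -2.97 ± 0.24, -2.33 ± 0.19 and -2.28 ± 0.17, from 0.0192, 0.0401 and 0.0349 transcripts in the median member section, inside the control-probe level. Among 22 transcription regulators tested, 5 were higher and 13 lower, with a median of -0.54. Meis2 (-1.91 ± 0.06) and Foxp1 (-1.42 ± 0.06) were the most reduced. With library size the split of this list was 9 higher and 10 lower.

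Genes of synaptic release and excitability went both ways, as did all genes tested (41.8% higher and 39.0% lower). Of 8 vesicle release genes tested, 3 were higher and 3 lower, and with library size 5 and 3. Rab3b, a vesicle GTPase gene, averaged 2.14, 2.46 and 2.7 transcripts per member against 0.91, 0.99 and 1.06 (1.0 ± 0.06). The active zone gene Rims3 averaged 1.35, 1.53 and 1.67 against 4.02, 4.52 and 4.92 (-1.88 ± 0.06). Of 13 channel and transmitter receptor genes, 4 were higher and 7 lower, with a median of -0.42, and with library size 7 and 4. The serotonin receptor gene Htr1f (-1.23 ± 0.07) and the potassium channel gene Kcnh5 (-1.03 ± 0.07) were lower under both scalings, and Shisa6, which encodes an AMPA receptor auxiliary protein, was higher (1.42 ± 0.12).

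Layer 5 and upper-layer genes set the members less apart from the Foxp2 gate. Of 5 layer 5 projection genes 4 were lower, with a median of -0.41: Fezf2, a regulator of subcerebral projection neurons, gave -1.07 ± 0.07 and Bcl11b -0.66 ± 0.05, while Parm1 and Pou3f1 turned to 0.14 and 0.18 with library size. Vat1l did not pass (-0.13 ± 0.09) and was called higher with library size (0.42) and in cells with at most 5% glial, vascular and meningeal transcripts (0.30). In both of these settings the list had 1 gene higher and 2 lower. Of 4 upper-layer genes 1 was lower, Rspo1 at -1.03 ± 0.14 and within the control-probe level, and Cux2, Rorb and Rasgrf2 gave -0.07 ± 0.07, -0.06 ± 0.05 and -0.08 ± 0.08. With library size these 3 were higher. In cells with at most 5% glial, vascular and meningeal transcripts 1 gene of the list was higher, Rasgrf2 (0.33), and 2 were lower, among them Rorb (-0.39).

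Activity-regulated genes were lower in members, 5 of 5 with a median of -1.17. Arc, an immediate early gene of synaptic plasticity, averaged 6.39, 6.77 and 9.36 transcripts per member and 16.4, 18.3 and 21.8 per Foxp2-gate cell (-1.67 ± 0.07). Nrn1, a neurite growth gene, gave -1.68 ± 0.08. Fos gave -1.17 ± 0.09, with overlapping sections (0.473, 0.584 and 0.996 against 0.884, 1.2 and 1.49). Bdnf (-0.59 ± 0.09) and Gadd45a (-0.23 ± 0.09, edgeR adjusted p = 0.0299) depended on the setting. With library size 3 genes of the list were lower and 1 higher, and the same counts were found in cells with few glial transcripts. Gadd45a was the higher gene in both, at 0.31 and 0.46, and Bdnf was not called in either.

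Transcripts of other cell types moved with these differences. Glial, vascular and meningeal genes made up 4.56% of the median member's transcripts and 2.20% of the median Foxp2-gate cell's, and 27 of 40 such genes were higher and 3 lower in members. The 3 oligodendrocyte markers measured (Opalin, Sox10 and Gjc3) summed to 7.04 to 8.26 transcripts per member and 2.09 to 2.71 per Foxp2-gate cell. Opalin averaged 1.84, 1.96 and 2.09 against 0.488, 0.543 and 0.699, a log2 difference of 1.5 ± 0.08. Endothelial markers were higher for 9 of 9 genes, microglial for 7 of 7 and oligodendrocyte precursor for 3 of 3. Some genes of the members are also high in oligodendrocytes: Tmem163 stood at 76.8 per 10000 transcripts in the median section of the oligodendrocyte gate (9324 cells).

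The comparison was therefore repeated in cells with at most 2 oligodendrocyte transcripts (2289 members) and, a choice made after the data were seen, in cells with at most 5% glial, vascular and meningeal transcripts (2064 members). In the first, Opalin and Sox10, which the limit itself acts on, gave 0.08 and 0.53, and 27 of the 40 glial, vascular and meningeal genes were still higher and 2 lower. Tmem163 gave 3.05 there, Nrp2 3.16 and Ccn2 4.85. In the second, 11 of the 40 glial, vascular and meningeal genes were higher and 8 lower, with all 3 oligodendrocyte markers still higher. The 5% limit itself acts on these 40 genes, so their counts there are a description. Ccn2 gave 5.25, Tmem163 3.34 and Nrp2 3.74. Prox1 was 1.24 ± 0.07 higher in all cells but 0.08 and 0.13, and not called, in these settings. Of 232 genes called in all cells, 201 and 162 were called in the same direction in these settings. Another 3 and 16 were called in the opposite direction.

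**Figure D2:**
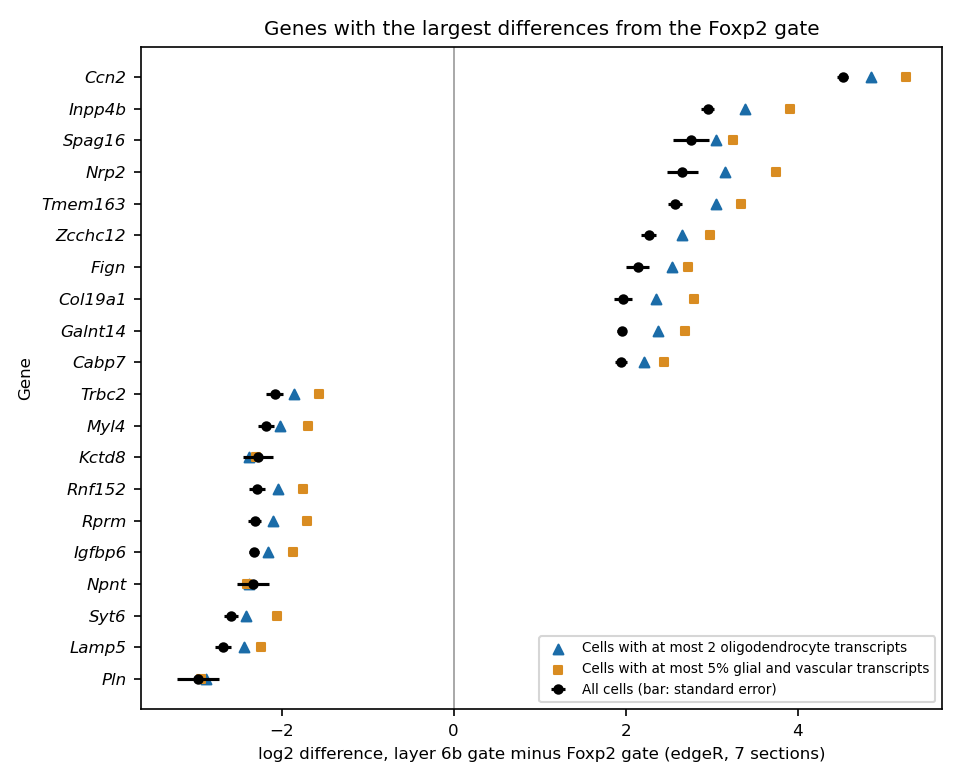
Log2 difference between members and the Foxp2 gate (horizontal axis) for the 10 genes with the largest excess and the 10 with the largest deficit (vertical axis). Circles are the fit over all cells with the standard error as a bar (n = 7 sections), triangles the fit in cells with at most 2 oligodendrocyte transcripts and squares in cells with at most 5% glial, vascular and meningeal transcripts. All 20 genes stay on the same side of 0, with Ccn2 at 4.52, 4.85 and 5.25.

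Against all other VGLUT1 neurons, 240 of 292 genes (82.2%) were called, 117 higher (40.1%) and 123 lower (42.1%). Ccn2 was again first at 5.18 ± 0.04 (edgeR adjusted p = 4.64e-18), a 36.3-fold excess over cells with 0.194, 0.293 and 0.353 transcripts. Nxph3 was second at 3.56 ± 0.04, with 1.02, 1.19 and 1.28 transcripts per comparison cell, and Inpp4b gave 2.05 ± 0.08. Sema5b (3.21 ± 0.06), Tmem163 (2.84 ± 0.06), Pcsk5 (2.62 ± 0.06), Gadd45a (2.58 ± 0.06) and Oprm1 (2.29 ± 0.08) followed. The kainate receptor gene Grik3 averaged 5.12, 5.44 and 5.55 transcripts per member against 1.11, 1.26 and 1.42 (2.17 ± 0.05).

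The layer 6 corticothalamic list, lower against the Foxp2 gate, was higher against this wider group for 5 of 5 genes, with a median of 1.25 against 0.00 for all genes. Sla gave 2.08 ± 0.07, Tle4 1.54 ± 0.05 and Foxp2 1.25 ± 0.07. Rprm gave 0.27 ± 0.05 and was not called with library size (0.08), with members of at least 6 Cplx3 transcripts (0.03) or in cells with few glial transcripts (-0.06). The comparisons share the members, so these values are given side by side and not as separate evidence. Of the layer 5 projection list, Bcl11b (1.09 ± 0.05) and Fezf2 (0.71 ± 0.06) were higher, Vat1l and Pou3f1 lower, and Parm1 gave -0.16 ± 0.07, not called, although it was called lower with library size (-0.34), in cells with few glial transcripts (-0.36) and without posterior replicate 4 (-0.26), among 7 alternatives.

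Upper-layer genes were lower in members, 4 of 4 with a median of -2.20. Rspo1, a Wnt pathway activator, gave -3.03 ± 0.12 from 0.0646 transcripts in the median member section, Rasgrf2 -2.74 ± 0.09, Cux2 -1.66 ± 0.08 and Rorb -1.0 ± 0.04. Cux2 averaged 0.625, 0.739 and 0.971 transcripts per member against 2.08, 2.46 and 3.2. Other deficits included Pdzrn3 (-3.04 ± 0.08), Lamp5 (-2.68 ± 0.09), Plcxd2 (-2.53 ± 0.06), the calbindin gene Calb1 (-2.40 ± 0.09) and Nell1 (-2.38 ± 0.09). Ndst4 gave -3.21 ± 0.27 from 0.0154 transcripts in the median member section. Rspo1, Pdzrn3, Nell1 and Ndst4 lay within the control-probe level in members.

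On the guidance and adhesion list 16 of 22 genes were higher and 5 lower. Among them were Cdh13 (2.07 ± 0.04), Sdk2, a synaptic adhesion gene (2.21 ± 0.04), and on the lower side Epha4 (-1.63 ± 0.04). With library size these counts were 13 and 6, and in cells with few glial transcripts 13 and 7. Of 10 calcium-binding protein genes, 2 were higher and 6 lower, with Hpcal1 at 1.5 ± 0.06 and Pvalb at -1.34 ± 0.08. Of the 5 activity-regulated genes, 4 were lower and Gadd45a was higher. Of the 40 glial, vascular and meningeal genes 6 were higher and 21 lower, and the 3 oligodendrocyte markers were among the higher (Opalin 1.37 ± 0.06). In cells with few glial transcripts, where the limit itself acts on these 40 genes, 17 were higher and 4 lower. With library size in place of TMM the median of all genes moved to -0.18 and the calls to 103 higher and 144 lower.

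The Cplx3 GABAergic gate shares the Cplx3 threshold with the members but not the transmitter genes. It was led by Pvalb, with 40.0, 41.9 and 50.1 transcripts per cell, and is called here by its rule. Its cells held a mean of 4.95 to 5.58 Cplx3 transcripts per section, against 8.78 to 10.4 in members. Of 286 genes, 206 (72.0%) were called, 107 higher (37.4%) and 99 lower (34.6%) in members. Of the 40 glial, vascular and meningeal genes 13 were higher and 8 lower: microglial markers were higher for 7 of 7 and oligodendrocyte markers for 3 of 3, and astrocyte markers lower for 6 of 7. In cells with at most 5% of such transcripts, a limit that itself acts on these 40 genes, 3 were higher and 7 lower. Their part in the results was not tested.

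Regulators of excitatory cortical neurons were among the genes with a large excess over this group, which Ccn2 led (6.06 ± 0.15). Neurod6 gave 5.76 ± 0.18 and Fezf2 4.84 ± 0.22, and the heparan sulfate sulfotransferase gene Hs3st2 gave 5.16 ± 0.18. Neurod6 averaged 5.66, 5.98 and 6.96 transcripts per member and 0.058, 0.092 and 0.205 per GABAergic cell, and the medians of Ccn2, Neurod6, Hs3st2 and Fezf2 in the GABAergic gate lay below the control-probe level of the members, so these folds are not exact. Nxph3 was 3.47 ± 0.09 higher. Inpp4b did not pass the test (-0.17 ± 0.12, edgeR adjusted p = 0.192), with 1.11, 1.48 and 1.91 transcripts per GABAergic cell and overlapping sections, although DESeq2 called it at -0.29.

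Genes lower in members were Pvalb (-6.93 ± 0.09), Sst (-5.32 ± 0.18), Btbd11 (-4.97 ± 0.15), the potassium channel subunit gene Kcnmb2 (-4.95 ± 0.17), Vat1l (-4.71 ± 0.14) and the orphan nuclear receptor gene Nr2f2 (-4.49 ± 0.15). Sst, Btbd11 and Kcnmb2 lay within the control-probe level in members. Sst averaged 0.0286, 0.0454 and 0.063 transcripts per member and 1.28, 1.82 and 2.56 per GABAergic cell. All 5 activity-regulated genes were higher in members, with a median of 2.32 against 0.07 for all genes, led by Nrn1 (2.91 ± 0.13) and Bdnf (2.90 ± 0.20). The direction of this list therefore differed with the group set beside the members. Of 13 channel and transmitter receptor genes tested, 5 were higher and 7 lower.

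Members were not uniform. The share of cells with at least 3 Ccn2 transcripts was 45.9% at 4 to 5 Cplx3 transcripts (1225 members), 72.9% at 6 to 9 (1246 members) and 96.7% at 10 or more (1472 members). Section ranges at these counts were 38.6% to 54.8%, 67.2% to 80.9% and 95% to 99.0%, so the ranges did not overlap. Over the same classes Rprm was 100.04, 74.7 and 35.3 per 10000 transcripts and Gadd45a 49.2, 77.0 and 145. The share of glial, vascular and meningeal transcripts, pooled over the cells of a class, was 9.61%, 8.06% and 4.35%. It is not the median per cell given above. The median depth was 349, 351 and 494 transcripts. The part of depth and of glial transcripts in these differences was not tested, and since Cplx3 chose the members the values are a description.

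**Figure D3:**
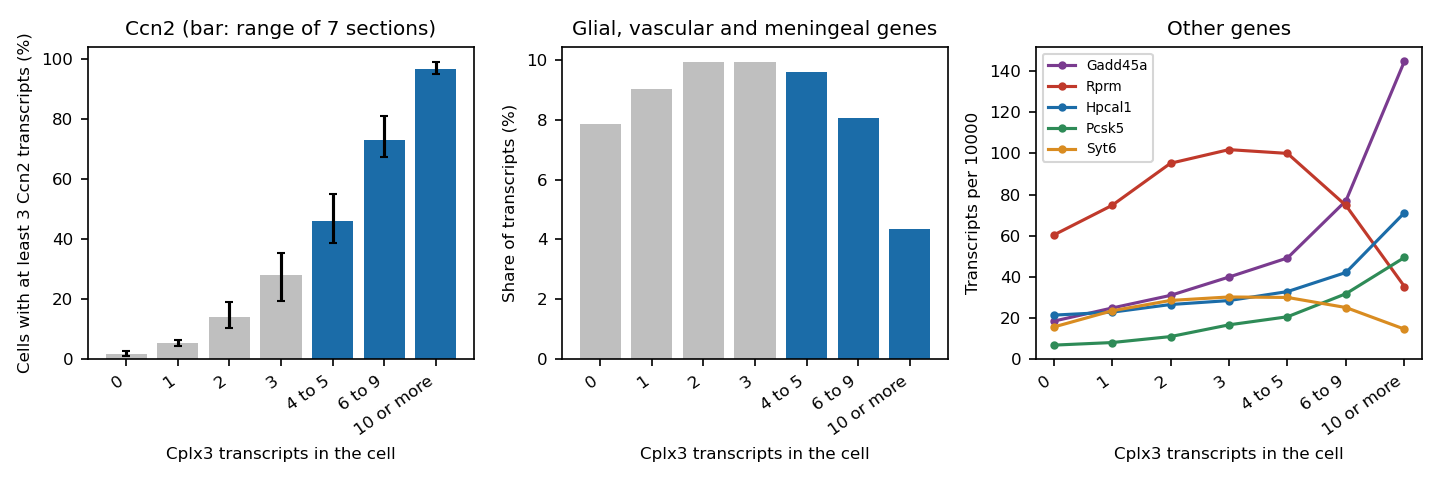
Cells of the VGLUT1 gate by their Cplx3 count (horizontal axis, members in blue and cells outside the rule in grey). The left plot gives the percentage of cells with at least 3 Ccn2 transcripts, with the range of 7 sections as a bar. The middle plot gives the percentage of pooled transcripts from glial, vascular and meningeal genes, and the right plot 5 genes per 10000 transcripts. The Ccn2 share goes from 1.73% at 0 Cplx3 transcripts to 96.7% at 10 or more with no step at the threshold of 4.

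Divided by Ccn2 count, a division made after the values were seen, 394 members (9.99%, section range 7.34% to 12.7%) held no Ccn2 transcript. Another 1152 (29.2%) held 1 to 4, and 2397 (60.8%, 57.6% to 65.6%) held 5 or more. Among all cells of the VGLUT1 gate with at least 5 Ccn2 transcripts, 2397 of 3468 (69.1%) were members. Without the VGLUT1 gate, 2397 of the 6788 cells with that many (35.3%) were members. Members with 5 or more held 12.3 Cplx3 transcripts on average and those without Ccn2 5.03. Glial, vascular and meningeal genes made up 5.04% and 10.6% of the pooled transcripts of these 2 classes. Median depths were 443 and 369.

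Genes that were more abundant in members with 5 or more Ccn2 transcripts than in those with 0 included Pcsk5 (48.6 against 9.74 per 10000 transcripts) and Col19a1 (27.7 against 5.73). Cntn6, a contactin (54.1 against 12.4), Rxfp1 (40.3 against 9.74), Inpp4b (37.4 against 9.19) and Tmem163 (88.0 against 23.5) behaved likewise. Section ranges did not overlap for these 6 genes. They were chosen after their values were seen, and genes without overlap were not counted over the whole panel. In the other direction, Rprm stood at 36.7 against 129.6, Necab1 at 18.9 against 59.2, Cux2 at 11.6 against 39.3 and the astrocyte gene Aqp4 at 30.3 against 91.1 per 10000. By list, members without Ccn2 stood higher for 4 of 4 upper-layer and 7 of 7 astrocyte genes. Most genes of the panel correlated negatively with Ccn2 across members, so list counts in this direction are a description and not a trait of the lists. The 5 corticothalamic genes split: Rprm, Syt6 (35.9 against 15.8) and Foxp2 (57.7 against 42.8) were higher without Ccn2, while Tle4 (86.5 against 132) and Sla (16.1 against 20.7) were higher with 5 or more Ccn2 transcripts.

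**Figure D4:**
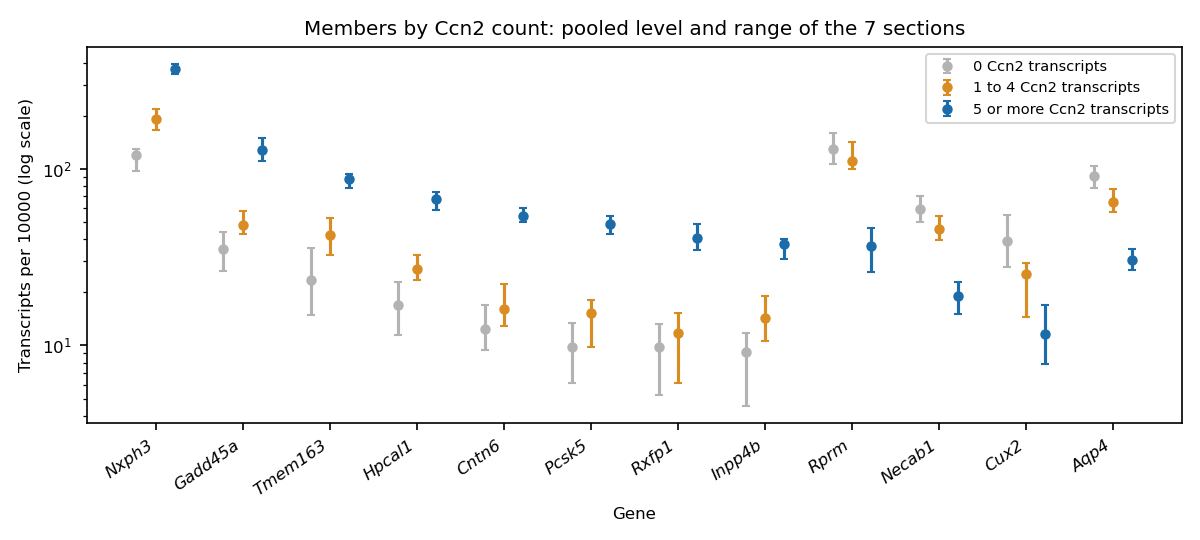
Transcripts per 10000 (vertical axis, log scale) of 12 genes (horizontal axis) in members with 0, 1 to 4 and 5 or more Ccn2 transcripts. Points are pooled levels and bars the range of 7 sections. Pcsk5 stands at 9.74 and 48.6 in the outer classes, Rprm at 129.6 and 36.7.

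Across the 3943 members the genes that followed Ccn2 most closely were Nxph3 (Pearson r = 0.59), Cplx3 (0.51), Pcsk5 (0.46), Gadd45a (0.46), Hpcal1 (0.45) and Tmem163 (0.44). Each level was the log2 of 1 plus the transcripts per 100 of its cell, so all genes of a cell share its total as the divisor, and cells share their section. The correlations are given as a description. Foxp2 was present at 4 or more transcripts in 804 members (20.4%, section range 15.5% to 26.5%), which were 10.9% of the 7347 VGLUT1-gate cells with that many. These members were deeper (median 558 against 370 transcripts) and held more Ccn2 (10.7 against 8.84 per cell) and Cplx3 (11.9 against 9.29) than the other members, in raw counts with no correction for depth.

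The last question was whether members differed along the front-to-back axis sampled by the sections. The share of members among all cells was 1.05% and 0.925% in the anterior sections, 1.14% and 1.06% in the intermediate, and 1.09%, 0.853% and 1.10% in the posterior sections. Posterior replicate 3 had the lowest share, with a Wilson 95% interval of 0.783% to 0.929%. Mean shares differed by 0.0271 percentage points between posterior and anterior sections (two-sided exact permutation test p = 1, where 0.2 is the smallest p that 3 against 2 sections allow), and the sign turned without anterior replicate 2, posterior replicate 1 or posterior replicate 4 (-0.0358, -0.0118 and -0.0148). Within the VGLUT1 gate the shares were 5.12% and 4.74% (exact p = 0.4). Over 6 such tests the adjusted p ran from 0.6 to 1, and intermediate against anterior could not go below 0.333. In tissue sections fewer cells of a type and fewer transcripts per cell cannot be told apart by such a share.

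No gene passed the threshold between positions in members with edgeR: 0 of 289 (0.00%) for posterior against anterior, intermediate against anterior and posterior against intermediate, with 18, 6 and 24 genes at an unadjusted p under 0.05. DESeq2 called 1, 0 and 0. Leaving out anterior replicate 2 gave 1 call for intermediate against anterior, Gpr17 (edgeR adjusted p = 0.0171), and leaving out intermediate replicate 1 gave 1 for posterior against intermediate, Nr2f2 (edgeR adjusted p = 0.0157). The median standard error was 0.16, 0.18 and 0.16 on the log2 scale, so differences well under 1 could be missed in single genes. Sections did not overlap for 50 genes (17.3%), 54 (18.7%) and 67 (23.2%). Ccn2 differed by 0.03 ± 0.10 between posterior and anterior sections and Nxph3 by -0.08 ± 0.08.

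The gene with the smallest p for posterior against anterior was Fos, an immediate early gene, named here after its values were seen. It stood at 12.7 and 11 per 10000 transcripts in the anterior sections, 14.1 and 12.1 in the intermediate, and 17.4, 23.2 and 19.0 in the posterior sections, with no overlap between posterior and the others. Its log2 difference was 0.72 ± 0.16 (edgeR adjusted p = 0.129). DESeq2 called it at an adjusted p of 0.00643, and edgeR did so in cells with few glial transcripts (0.85 ± 0.17, adjusted p = 0.0110). With the slide as a term it was 0.54 ± 0.22 (edgeR adjusted p = 0.969), and 2 of the 3 posterior sections lay on a slide of their own. In the Foxp2 gate Fos stood at 24.1 and 17.2 in the anterior and 27.3, 26.0 and 29.4 in the posterior sections.

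Whether the posterior-minus-anterior difference itself differed between members and the Foxp2 gate was tested with an interaction term. It called 0 of 288 genes (0.00%) with edgeR, with 7 at an unadjusted p under 0.05, and 0 with DESeq2. For Fos the difference of differences was 0.31 ± 0.22 (edgeR adjusted p = 0.999).

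**Figure D5:**
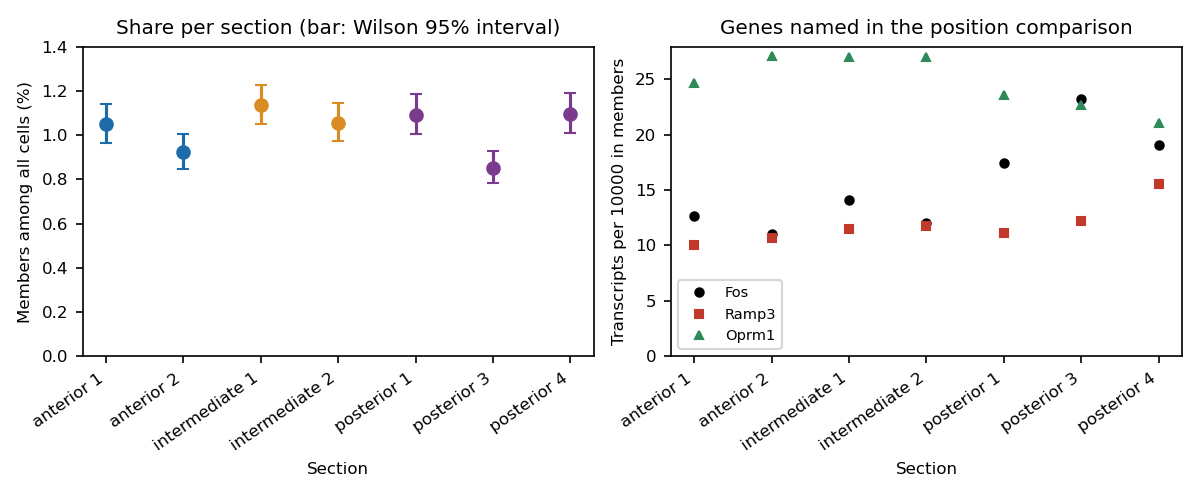
Members by section (horizontal axis): the left plot gives their percentage among all cells with the Wilson 95% interval as a bar, the right plot Fos, Ramp3 and Oprm1 per 10000 transcripts of the members. The share runs from 0.853% to 1.14%, and the 3 posterior sections hold 17.4 to 23.2 Fos transcripts per 10000 against 11 to 14.1 in the others.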

How the data were processed

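Members and lists were chosen with earlier results of these data known. Transcript counts per gene and segmented cell were used as the authors deposited them, and counts of control probes and codewords came from the deposited cell table, joined by barcode. Of the symbols, 296 of 297 were in the RefSeq table, and 8 barcode stems occur in more than 1 cell. The submitters' processing notes name Seurat. For segmentation, decoding and cell filters, nothing is given in the sources used here. No doublet caller was run: a segmented cell in tissue can hold a neighbour's transcripts.

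Raw counts were summed per section and gate and fitted in R 4.3.3 by edgeR 4.0.16, which loads limma 3.58.1. The steps were filterByExpr, TMM, quasi-likelihood F test, Benjamini-Hochberg adjustment over all genes tested, with the section as a block between gates and no block between positions. The standard error is the absolute log2 difference over the square root of F. The fit was tested on simulated counts. Levels are mean transcripts per cell or per 10000 transcripts, and section values are given as lowest, median and highest. The oligodendrocyte gate took cells with at least 5 Opalin and 5 Sox10 transcripts and none of Slc17a7, Gad1, Gad2 or Cplx3. Shares used scipy 1.17.1 (exact permutation, Wilson intervals, counting error alone).

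Named genes were, per gate comparison, the 10 largest differences each way among called genes that moved one way in all 7 sections, the layer lists, and up to 4 called genes of each function list, of which examples are given. 1 gene that the rule names is not reported here. Opalin, Cux2 and Rorb and the genes named by Ccn2 class, correlation or position fall outside it in part and were chosen after their values were seen. Alternatives were DESeq2 1.42.0, library size, no filter, cells with at least 200 transcripts, cells with at most 2 oligodendrocyte or (added after the data were seen) 5% glial transcripts, at least 6 Cplx3 transcripts, sums per replicate number with a replicate block, no section block, slide as a term, and leaving out each section. Tables and plots were made in Python 3.11.15 using pandas 2.3.3, numpy 2.4.6 and matplotlib 3.10.9.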

Additional observations from a re-analysis of the deposited data

Results flagged for a closer look

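Ramp3 in members stood at 15.6 per 10000 transcripts in posterior replicate 4, and at 10.1 to 12.2 in the other sections. It was the 1 of 56 groups of 7 values in which an end value stood apart by Dixon's criterion, and chance gives about 1 in 20 such groups.

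Counts that belong to no gene were present in members: 1.11 control-probe counts, 0.0205 control-codeword counts and 0.214 blank-codeword counts per member, against 0.656, 0.0153 and 0.158 per cell over all cells.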

How the results depend on the processing

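Counts of called genes between the gates stayed within 1.5 times the main count under all alternatives run, and 2671 values of single named genes kept their call, while 22 lost the threshold, 9 gained it and 18 turned, called on at least 1 side. The values that turned against the Foxp2 gate were, with library size, Sla (0.15), Pou3f1 (0.18), Parm1 (0.14), Vat1l (0.417), Gadd45a (0.314), Cux2 (0.485), Rorb (0.488) and Rasgrf2 (0.466), and in cells with at most 2 oligodendrocyte transcripts Gadd45a (0.103) and Rasgrf2 (0.259). With at least 6 Cplx3 transcripts Gadd45a gave 0.257. In cells with at most 5% glial transcripts Sla (0.28), Vat1l (0.302), Gadd45a (0.464) and Rasgrf2 (0.328) turned. Rprm against other VGLUT1 neurons gave -0.0625 in the latter cells, and Pou3f1 against the GABAergic gate gave -0.40 there and -0.0417 in cells with at most 2 oligodendrocyte transcripts. The cause was not tested. The difference in share between posterior and anterior sections gave -0.0373 percentage points in cells with at least 200 transcripts and ran from -0.0358 to 0.108 when each section was left out. For posterior against anterior, DESeq2 and cells with at most 5% glial transcripts each called 1 gene, Fos. Leaving out each section gave 0 to 1 genes: Gpr17 for intermediate against anterior without anterior replicate 2, and Nr2f2 for posterior against intermediate without intermediate replicate 1. The labels do not say whether sections with the same replicate number share an animal, so the numbers were not taken as pairs. Deviations of the replicate 1 sections from their position means correlated at 0.18, 0.02 and 0.26 over 289 genes. With so few sections per position these values cannot show whether sections share an animal. With the replicate block 0 genes were called between positions (Fos gave 0.45 ± 0.15, edgeR adjusted p = 0.977), and sums per replicate number with that block gave 114 higher and 103 lower genes against the Foxp2 gate, 117 and 122 against other VGLUT1 neurons, and 99 and 91 against the GABAergic gate. Precision between positions is limited by 2 or 3 sections each, and for 73 genes by the control-probe level.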
